A study of Mus musculus with 4 samples.

Results

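The genes described here encode the core machinery that makes microRNAs and silences their targets, together with the host gene of the microRNA cluster that was overexpressed. They were chosen by name: Aopep (2010111I01Rik on the array), Drosha (Rnasen), Dgcr8, Xpo5, Dicer1, Tarbp2, Ago1, Ago2 and Ago3 (Eif2c1, Eif2c2 and Eif2c3) and Tnrc6a. The 10 genes had 30 of the 41174 gene probes on the array, and 27 of these 30 were among the 30038 probes bright enough to be tested.

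The study compared 4TO7 cells, a mouse mammary tumour line from the strain BALB/cfC3H, that stably carried the retroviral construct pMSCV-miR-23b/27b/24 with 4TO7 cells that stably carried pMSCV-puro, the vector alone. There were 2 arrays a group, from replicate transfections according to the series, so p-values measure the spread between these. On every array Cy5 marked the cells' RNA and Cy3 a common reference pooled from 11 mouse cell lines. All levels below are log2 ratios of Cy5 over Cy3 after normalization, a difference is the mean of the miR-23b/27b/24 arrays minus the mean of the vector arrays with its standard error (n = 2 arrays a group), and adjusted p-values come from limma over all 30038 probes, with a call at an adjusted p under 0.05.

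Between 69.8% and 74.8% of probes were well above background in Cy5 on each array. Log ratios over all probes correlated at 0.949 within the miR-23b/27b/24 group and 0.886 within the vector group, against 0.630 to 0.728 between arrays of different groups. The 5 mammary epithelial markers examined (Krt8, Krt18, Krt19, Epcam and Cdh1) were above background on all 4 arrays. In miR-23b/27b/24 cells 3 of them were lower, Krt19 with a difference of -4.03 (adjusted p = 0.00592), Epcam of -3.61 (adjusted p = 0.00177) and Cdh1 of -2.95 (adjusted p = 0.0259). Krt18 at -1.40 (adjusted p = 0.0581) and Krt8, which lay the other way at 0.30 (adjusted p = 0.594), did not pass the test. Of markers of other cells, 2 of 3 mesenchymal, 3 of 3 leukocyte, 1 of 3 endothelial and 2 of 3 adipocyte genes were above background on all 4 arrays. Of these, Ptprc (74 to 80 Cy5 units), Kdr (82 to 94 units) and Plin1 (74 to 82 units) were dim. The median signal of an array's probes was 131 to 136 units, and Vim had 69903 to 193687 units. Among the leukocyte genes Cd68 was lower in miR-23b/27b/24 cells, with a difference of -1.68 (adjusted p = 0.00656). Ptprc had log2 ratios of -5.75 and -5.75 in miR-23b/27b/24 cells and -5.82 and -5.72 in vector cells, and Cd3e differed by 0.02 (adjusted p = 0.963). The part of these markers in the results below was not tested. In RNA from a whole culture, fewer cells of one kind and less RNA per cell cannot be told apart.

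MicroRNAs are cut out of longer transcripts in the nucleus by Drosha and its partner Dgcr8, carried to the cytoplasm by exportin 5 (Xpo5), and cut again by Dicer1, which works with Tarbp2. One strand is then loaded into an Argonaute protein (Ago1 to Ago4), which finds target mRNAs mainly through the seed near the 5′ end of the microRNA and recruits a GW182 scaffold protein (Tnrc6a, Tnrc6b or Tnrc6c), which in turn brings deadenylases and decapping factors. The cluster that was overexpressed lies within Aopep, a gene for an aminopeptidase. Whether the endogenous microRNAs and the host transcript share a primary RNA in these cells was not tested.

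The mature microRNAs of the cluster that RefSeq annotates are shown because they are what the construct was made to raise, with the seed (bases 2 to 8) in capitals; miR-23b-3p is named only.
mmu-miR-23b-5p: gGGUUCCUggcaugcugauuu
mmu-miR-27b-5p: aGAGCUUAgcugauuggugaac
mmu-miR-27b-3p: uUCACAGUggcuaaguucugc
mmu-miR-24-1-5p: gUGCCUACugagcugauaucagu
mmu-miR-24-3p: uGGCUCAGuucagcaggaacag
No 2 of these share a seed. In GRCm38.p6, Aopep spans chr13:62964893-63326096 on the plus strand, 361204 bases. The hairpins Mir23b (chr13:63300484-63300557), Mir27b (chr13:63300712-63300784) and Mir24-1 (chr13:63301208-63301275) lie in its last stretch. Together they span 792 bases, starting 335591 bases after the start of Aopep and ending 24821 bases before its end. None of the array's probes shared a run of 15 bases with any of the 3 hairpins (0 probes each), so the arrays give no level of the microRNAs themselves.

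Across the 10 genes, Tnrc6a was higher in miR-23b/27b/24 cells, and no probe of the other 9 genes passed the test in either direction. Of the 27 probes tested, 2 were called, both higher and both of Tnrc6a. That is 7.41%, against 9.85% of all probes tested (5.41% higher and 4.44% lower), so the share of calls among these genes was near that of the array as a whole. At 16 of the 27 probes the groups had no overlap (59.3%), against 60% of all probes. The median difference over the 27 probes was 0.13, against -0.01 over all probes, and the median size of the difference was 0.194, against 0.240. At 19 of the 27 probes the difference was under 0.3 in size.

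**Figure D1:**
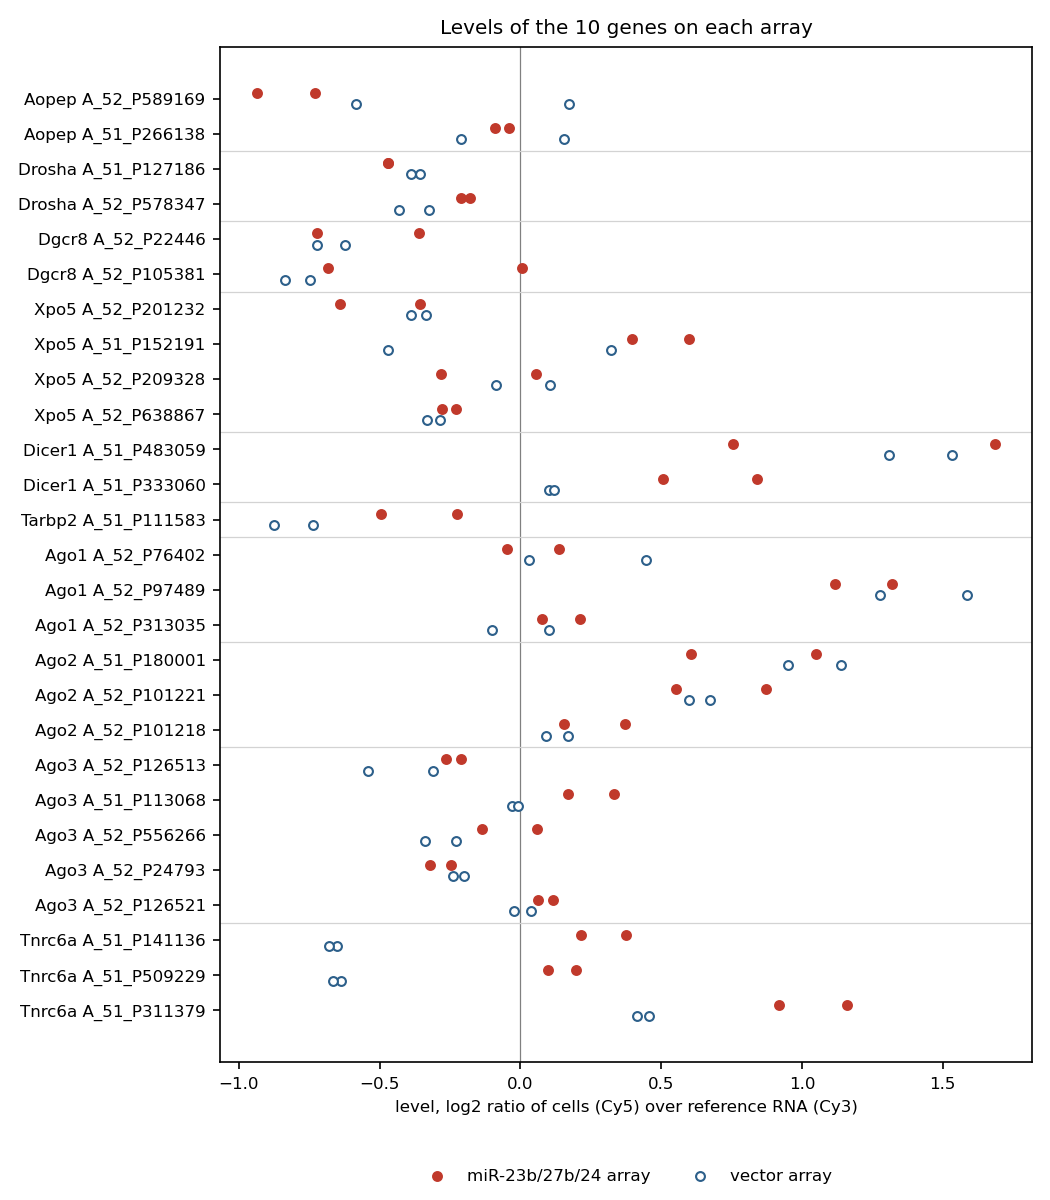
Level of each tested probe on each array, as the log2 ratio of cells over reference RNA (horizontal axis), for the 10 genes (rows, grouped by gene, brightest probe first); filled points are the 2 miR-23b/27b/24 arrays and open points the 2 vector arrays. The groups stand clearly apart at the 3 Tnrc6a probes, and levels of different probes are not comparable with each other.

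Tnrc6a encodes a GW182 scaffold that links Argonaute to the deadenylases. Its brightest probe (A_51_P141136, chr7:119296101-119296160 in mm7, plus strand) had log2 ratios of 0.22 and 0.38 in miR-23b/27b/24 cells and -0.65 and -0.68 in vector cells. The difference was 0.96 ± 0.13 (95% interval 0.63 to 1.30, 1.95-fold, adjusted p = 0.0192). Both miR-23b/27b/24 arrays stood above both vector arrays, and the gap was several times the spread within either group. The Cy5 signal alone showed the same separation, with 2534 and 2799 units in miR-23b/27b/24 cells against 1381 and 1162 units in vector cells, whereas the Cy3 signal of the reference RNA was 2478 and 2379 units on the miR-23b/27b/24 arrays and 2598 and 2416 units on the vector arrays.

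The second probe of Tnrc6a (A_51_P509229, chr7:119297779-119297838) lies beyond the first on the same strand. It had log2 ratios of 0.10 and 0.20 in miR-23b/27b/24 cells and -0.64 and -0.67 in vector cells, a difference of 0.80 ± 0.12 (1.74-fold, adjusted p = 0.0260). The third probe (A_51_P311379, chr7:119276918-119276977), upstream of both, had 1.16 and 0.92 in miR-23b/27b/24 cells and 0.46 and 0.41 in vector cells. Its difference of 0.60 ± 0.14 (1.52-fold, adjusted p = 0.0636) did not pass the test, although its 95% interval, 0.24 to 0.97, lay above 0. All 3 probes thus had their groups apart in the same order, both at the dimmest of them, with 123 and 119 Cy5 units in vector cells, and at the brightest. Groups lay apart, in either order, at 60% of all probes tested.

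The Tnrc6a calls needed both miR-23b/27b/24 arrays. Without replicate 1 of that group the brightest probe differed by 1.04 (adjusted p = 0.138) and the second by 0.85 (adjusted p = 0.182), and without replicate 2 by 0.88 (adjusted p = 0.140) and 0.75 (adjusted p = 0.170). In those fits, in which the lone array is taken to vary like the other group, 251 and 265 of all 30038 probes were called. With every local background used as measured, 0 of the 27 probes and 2.94% of all probes were called. Over all alternatives the difference of the brightest probe ran from 0.88 to 1.09 and never changed direction.

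**Figure D2:**
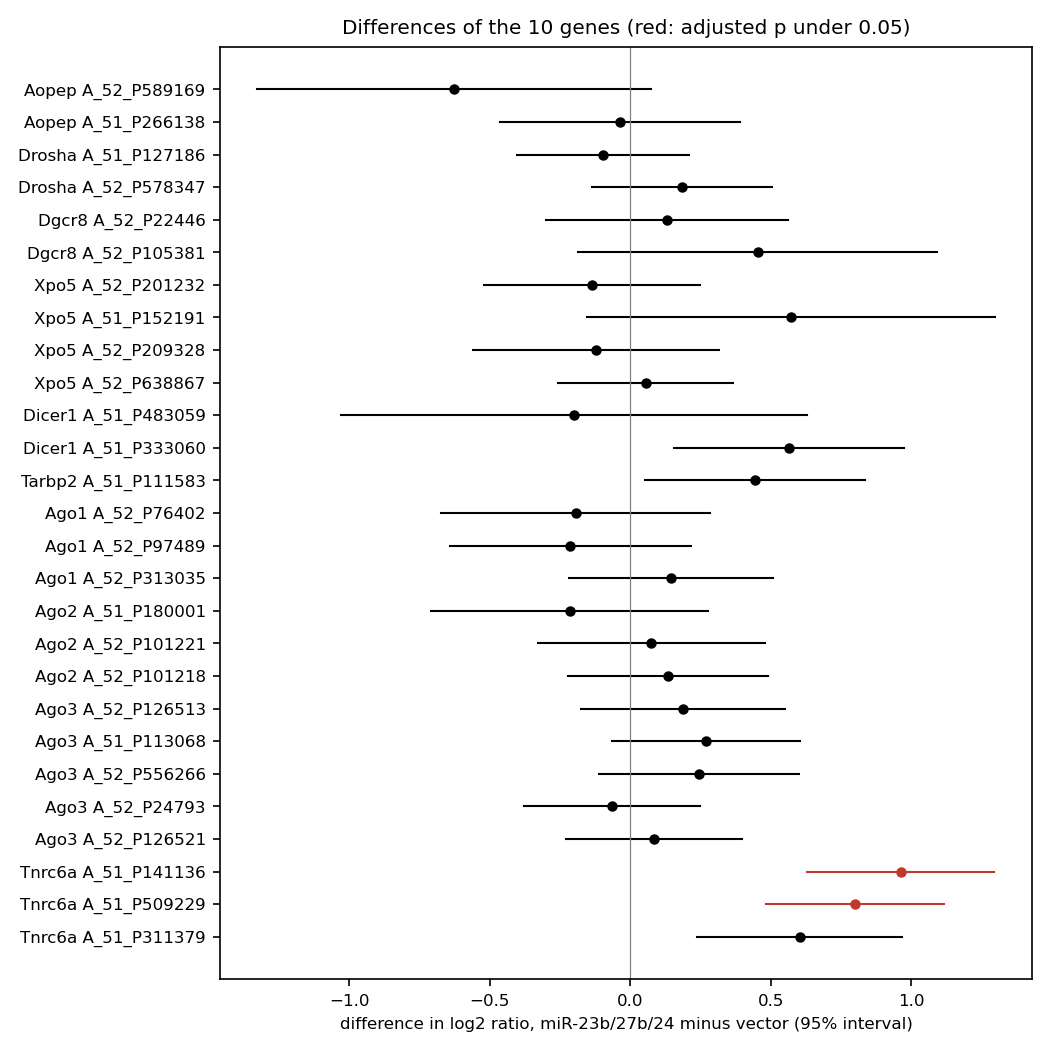
Difference in log2 ratio, miR-23b/27b/24 minus vector (horizontal axis), with its 95% interval from limma for the 27 tested probes of the 10 genes (rows); red marks an adjusted p under 0.05. The 3 Tnrc6a probes lie between 0.60 and 0.96, and the other 24 probes between -0.63 and 0.57.

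Among the nuclear enzymes, neither Drosha, the RNase III that makes the first cut, nor Dgcr8, its RNA-binding partner, passed the test. Drosha's brightest probe (A_51_P127186, chr15:12995078-12995137 in mm7) had log2 ratios of -0.47 and -0.47 in miR-23b/27b/24 cells and -0.39 and -0.36 in vector cells, a difference of -0.10 ± 0.12 (95% interval -0.40 to 0.21, adjusted p = 0.660). Its second tested probe (A_52_P578347) lay the other way, with -0.18 and -0.21 in miR-23b/27b/24 cells and -0.43 and -0.32 in vector cells (0.18 ± 0.12, adjusted p = 0.402). At both probes the groups did not overlap, as at 60% of all probes tested, and the differences had opposite signs. The third Drosha probe (A_51_P311227) was well above background on 1 array of each group and was not tested.

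The brightest Drosha probe is also the one probe of the 30 that holds a match to the seed of miR-27b-3p, ACTGTGA, searched in the sense strand of each probe. The stretch around it, with the match in capitals, is shown because the construct was made to raise miR-27b-3p. Whether the microRNA pairs with the Drosha message was not tested.
Drosha A_51_P127186: tctaagaACTGTGActgtggc
The same letters occur in 340 of the 41174 probes (0.826%). The match to miR-24-3p, CTGAGCC, occurs in 173 probes (0.420%) and in 0 of the 30. A match of these letters in a probe is a description of its sequence.

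Dgcr8's brightest probe (A_52_P22446) had log2 ratios of -0.36 and -0.72 in miR-23b/27b/24 cells and -0.62 and -0.72 in vector cells, with overlapping groups and a difference of 0.13 ± 0.17 (95% interval -0.30 to 0.56, adjusted p = 0.670). A dimmer probe (A_52_P105381) had 0.01 and -0.68 in miR-23b/27b/24 cells and -0.75 and -0.84 in vector cells. It was well above background on both miR-23b/27b/24 arrays and on no vector array, so its level in vector cells is only bounded and no fold is given, and the difference did not pass the test (adjusted p = 0.306). The third Dgcr8 probe (A_52_P150999) was above background on 0 arrays.

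Xpo5, which exports precursor microRNAs, had 4 tested probes and none was called. The largest difference was at A_51_P152191 (chr17:44372239-44372298 in mm7), with log2 ratios of 0.60 and 0.40 in miR-23b/27b/24 cells and -0.47 and 0.32 in vector cells (0.57 ± 0.28, adjusted p = 0.262). The vector arrays lay 0.791 apart there, the widest gap between vector arrays among the 27 probes. Without vector replicate 2 the difference was 0.97 and without vector replicate 1 it was 0.18, each with 1 vector array left. The neighbouring probe A_52_P201232 (chr17:44371210-44371269) had -0.36 and -0.64 in miR-23b/27b/24 cells and -0.34 and -0.39 in vector cells, a difference of -0.14 ± 0.15. At A_52_P209328 the values were 0.06 and -0.28 in miR-23b/27b/24 cells and 0.10 and -0.09 in vector cells, and at A_52_P638867 they were -0.23 and -0.28 in miR-23b/27b/24 cells and -0.28 and -0.33 in vector cells. The 4 probes thus ranged from -0.14 to 0.57 and had no common direction.

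Dicer1, the cytoplasmic RNase III, had probes that disagreed. The probe nearer its 3′ end (A_51_P333060, chr12:102186776-102188847 in mm7, minus strand, a match in 2 blocks) had log2 ratios of 0.84 and 0.51 in miR-23b/27b/24 cells and 0.10 and 0.12 in vector cells, a difference of 0.56 ± 0.16 (95% interval 0.16 to 0.97, adjusted p = 0.0913). Both miR-23b/27b/24 arrays were above both vector arrays in the ratio, but not in the Cy5 signal, which was 499 and 406 units in miR-23b/27b/24 cells and 529 and 299 units in vector cells. The Cy3 signal of that probe was the highest on vector replicate 1 as well. The other probe (A_51_P483059, chr12:102216485-102216544) had 1.69 and 0.76 in miR-23b/27b/24 cells and 1.31 and 1.53 in vector cells, so that the miR-23b/27b/24 arrays enclosed the vector arrays, with a difference of -0.20 ± 0.32 (95% interval -1.03 to 0.63, adjusted p = 0.742). The probes are printed because they read different stretches of the same message.
Dicer1 A_51_P333060: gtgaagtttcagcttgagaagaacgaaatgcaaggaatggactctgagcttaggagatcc
Dicer1 A_51_P483059: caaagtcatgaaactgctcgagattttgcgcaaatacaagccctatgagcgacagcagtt

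Tarbp2, the double-stranded RNA-binding partner of Dicer1, had 1 probe (A_51_P111583, chr15:102509553-102509612 in mm7). Its log2 ratios were -0.23 and -0.50 in miR-23b/27b/24 cells and -0.74 and -0.87 in vector cells. The groups did not overlap, as at 60% of all probes tested. The difference of 0.44 ± 0.15 (95% interval 0.05 to 0.84, 1.36-fold) had an adjusted p of 0.137. In Cy5 signal the probe had 1143 and 920 units in miR-23b/27b/24 cells against 767 and 643 units in vector cells.

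None of the 11 probes of the Argonautes Ago1, Ago2 and Ago3 was called, and their differences ran from -0.22 to 0.27. Ago2 is the Argonaute that can cut a target itself. Among its 3 probes within the rule, the brightest was A_51_P180001 (chr15:73186176-73186235 in mm7). It had log2 ratios of 1.05 and 0.61 in miR-23b/27b/24 cells and 1.14 and 0.95 in vector cells (-0.22 ± 0.19, adjusted p = 0.528). A_52_P101221 had 0.87 and 0.55 in miR-23b/27b/24 cells and 0.60 and 0.67 in vector cells, and A_52_P101218 had 0.37 and 0.16 in miR-23b/27b/24 cells and 0.17 and 0.09 in vector cells. The groups overlapped at all 3 of these Ago2 probes. A probe brighter than these 3 (A_51_P166107, chr15:73178448-73178507), which the array names 2310051F07Rik, a synonym of Ago2 in RefSeq, lies outside the rule. It had -0.68 and -0.90 in miR-23b/27b/24 cells and -0.49 and -0.32 in vector cells (-0.39 ± 0.15, adjusted p = 0.166). Its groups did not overlap, as at 60% of all probes tested.

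Ago1 had 3 overlapping probes. Its brightest (A_52_P76402) had log2 ratios of -0.05 and 0.14 in miR-23b/27b/24 cells and 0.45 and 0.03 in vector cells, a difference of -0.19 ± 0.19 (adjusted p = 0.558). A_52_P97489 had 1.32 and 1.12 in miR-23b/27b/24 cells and 1.59 and 1.28 in vector cells, and A_52_P313035 had 0.21 and 0.08 in miR-23b/27b/24 cells and 0.10 and -0.10 in vector cells. The differences of Ago1 thus ran from -0.21 to 0.15.

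At all 5 Ago3 probes the groups did not overlap, as at 60% of all probes tested. All 5 differences were small. The largest was at A_51_P113068, with log2 ratios of 0.17 and 0.33 in miR-23b/27b/24 cells and -0.03 and -0.01 in vector cells (0.27 ± 0.13, 95% interval -0.06 to 0.60, adjusted p = 0.253). The brightest, A_52_P126513, had -0.21 and -0.26 in miR-23b/27b/24 cells and -0.54 and -0.31 in vector cells (0.19 ± 0.14, adjusted p = 0.448). The remaining 3 had differences of 0.25, 0.08 and -0.06, so 4 of the 5 were above 0.

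Aopep, the host gene of the cluster, was not called. Its brightest probe (A_52_P589169, chr13:61121799-61121858 in mm7, plus strand) had log2 ratios of -0.73 and -0.94 in miR-23b/27b/24 cells and 0.17 and -0.58 in vector cells. Both miR-23b/27b/24 arrays were below both vector arrays, but the vector arrays lay farther apart than the nearest arrays of the 2 groups, and the difference of -0.63 ± 0.27 (95% interval -1.33 to 0.07) had an adjusted p of 0.212. Vector replicate 1 decided its size. Without that array the difference was -0.25, and without vector replicate 2 it was -1.004, each with 1 vector array left. The Cy5 signal was 668 and 543 units in miR-23b/27b/24 cells against 1296 and 656 units in vector cells.

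The second Aopep probe (A_51_P266138, chr13:61038087-61038146) had -0.09 and -0.04 in miR-23b/27b/24 cells, between the vector values of -0.21 and 0.15. Its difference was -0.04 ± 0.17 (95% interval -0.46 to 0.39, adjusted p = 0.913). The third (A_51_P298578, chr13:60892894-60892953) was above background on 0 arrays. Of 4 other array probes that mm7 places in the neighbourhood of the host gene's probes, listed after the files were seen, TC1480428 differed by -0.30 (adjusted p = 0.281), AK086179 by -0.04 (adjusted p = 0.896) and ENSMUST00000091560 by -0.39 (adjusted p = 0.342), and AK033847 was too dim to be tested. Of the genes next to Aopep, 3 were tested and 0 called. Ptch1, the receptor for hedgehog ligands, had the smallest p among them and differed by -0.40 ± 0.22 (adjusted p = 0.305) at its brightest probe and by 0.0042 at the other.

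Among the genes whose pattern over the 4 arrays lay closest to the brightest Aopep probe, of 15378 genes compared by their brightest probe, were Fchsd2, Ifitm6 and Spa17. Their root mean square distances from it, after each probe's own mean was taken off, were 0.0311, 0.0420 and 0.0457 in log2. Each of the 3 had its highest ratio on vector replicate 1, like the Aopep probe, which follows from how they were chosen. For Fchsd2 the values were -0.92 and -1.17 in miR-23b/27b/24 cells and -0.10 and -0.79 in vector cells.

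Beyond the 10 genes, 80 other genes of microRNA processing, silencing, mRNA turnover and the host locus were listed, and 76 were tested at their brightest probe. In miR-23b/27b/24 cells 3 were higher and 6 lower, 11.8% in all, against 10% of all 20500 genes (5.1% higher and 4.95% lower). Their median difference was 0.06, against -0.03 over all genes. The list as a whole was therefore called about as often as other genes. The counts by role given below are to be read beside that same 10%, and whether any role departed from it was not tested.

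Tnrc6b, a close relative of Tnrc6a, was the effector gene that was higher in miR-23b/27b/24 cells. Its brightest probe (A_51_P398596, chr15:81014181-81014240 in mm7) had log2 ratios of 0.23 and 0.18 in miR-23b/27b/24 cells and -0.64 and -0.83 in vector cells, a difference of 0.94 ± 0.14 (1.92-fold, adjusted p = 0.0222). A second probe (A_52_P459399, chr15:80963922-80963981) had 0.90 and 0.68 in miR-23b/27b/24 cells and -0.28 and -0.41 in vector cells (1.13 ± 0.14, adjusted p = 0.0170). Of the 6 Tnrc6b probes, 2 were called, and the other 4 differed by 0.53 (adjusted p = 0.0593), 0.31, 0.23 and 0.01. Tnrc6c, the remaining member of the family, had -0.09 and 0.10 in miR-23b/27b/24 cells and -0.24 and -0.11 in vector cells, a difference of 0.18 ± 0.14 that did not pass the test (adjusted p = 0.473). Whether Tnrc6a and Tnrc6c differed in their response was not tested.

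**Figure D3:**
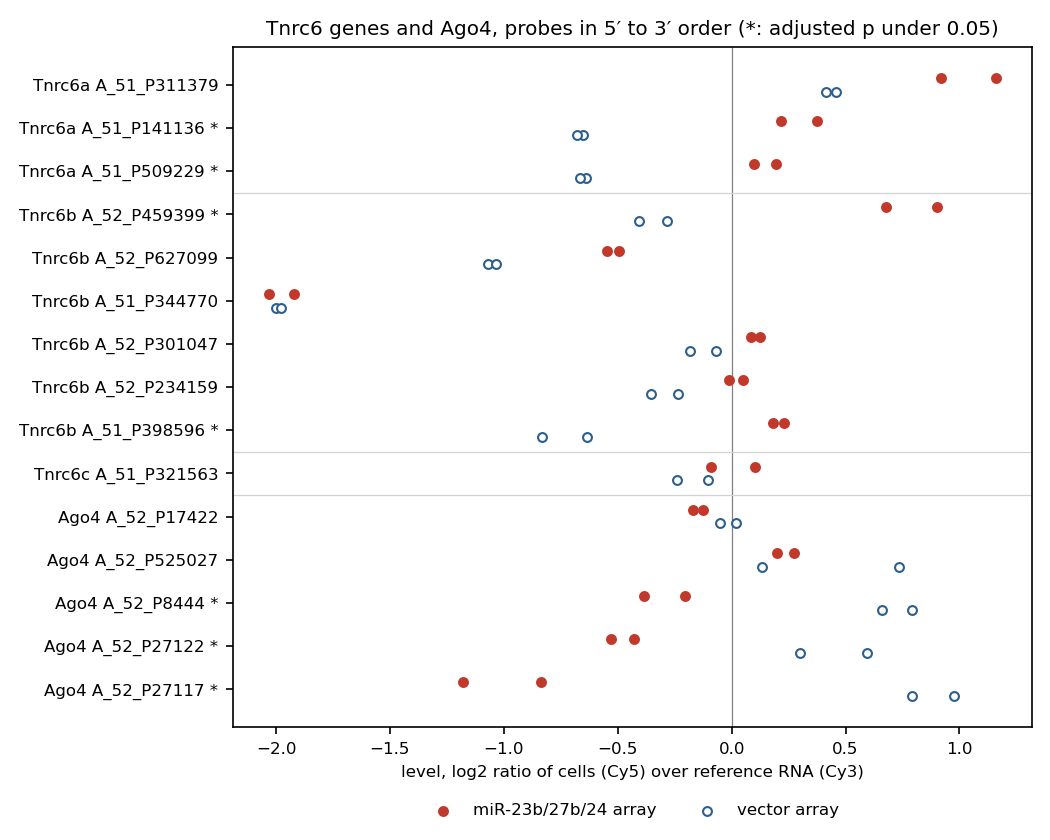
Level on each array, as the log2 ratio of cells over reference RNA (horizontal axis), of all probes of Tnrc6a, Tnrc6b, Tnrc6c and Ago4 (rows, in 5′ to 3′ order by mm7 position); filled points are miR-23b/27b/24 arrays, open points vector arrays, and a star an adjusted p under 0.05. The called Tnrc6a and Tnrc6b probes are higher in miR-23b/27b/24 cells. The 3 Ago4 probes nearest the 3′ end are lower and were well above background on the vector arrays only. The brightest Ago4 probe, A_52_P525027, has overlapping groups.

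Ago4, the fourth Argonaute, had 5 tested probes that disagreed, and only the brightest was well above background on all 4 arrays. Its brightest (A_52_P525027, chr4:125953020-125953079 in mm7, minus strand) had log2 ratios of 0.28 and 0.20 in miR-23b/27b/24 cells and 0.14 and 0.73 in vector cells (-0.20 ± 0.22, adjusted p = 0.626). The probe nearest the 3′ end (A_52_P27117, chr4:125934299-125934358) had -1.18 and -0.84 in miR-23b/27b/24 cells and 0.79 and 0.98 in vector cells (-1.89 ± 0.17, adjusted p = 0.00789). It was not well above background on the miR-23b/27b/24 arrays, so the fold is a bound, at least 3.35-fold lower in miR-23b/27b/24 cells, set on the Cy5 signal against the lowest signal well above background. The 2 probes next to it in 5′ direction gave the same order. A_52_P27122 differed by -0.93 (adjusted p = 0.0303) and A_52_P8444 by -1.02 (adjusted p = 0.0195). The bound on the Cy5 signal was 1.99-fold lower for A_52_P8444. For A_52_P27122 it was 2.00-fold, above the 1.90-fold estimated from its log2 ratios, so no least fold is given there. These bounds do not allow for the spread between arrays. Like the probe nearest the 3′ end, A_52_P27122 and A_52_P8444 were well above background on the vector arrays only and passed the filter through that group alone. Their levels in miR-23b/27b/24 cells are therefore only bounded. The fifth, A_52_P17422, farthest in 5′ direction, differed by -0.13 (adjusted p = 0.548). It too was well above background on the vector arrays only. Its Cy5 signal was 51 and 57 units in miR-23b/27b/24 cells and 64 and 64 units in vector cells, a level at which a fall could hardly show. Position and brightness of the probes were not told apart.

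In nuclear processing 1 of 10 tested genes was higher and 1 lower. Srrt, which links the nuclear cap-binding complex to Drosha, had log2 ratios of 0.81 and 0.58 in miR-23b/27b/24 cells and -0.72 and -1.29 in vector cells, a difference of 1.70 ± 0.23 (3.25-fold, adjusted p = 0.0185). Smad1, a transducer of BMP signals that also binds the Drosha complex, had -0.34 and -0.21 in miR-23b/27b/24 cells and 0.61 and 0.90 in vector cells (-1.04 ± 0.16, adjusted p = 0.0247). Its second probe differed by -0.84 (adjusted p = 0.0764).

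In export and dicing 0 of 5 tested genes were called. The smallest p was that of Prkra, the second double-stranded RNA-binding partner of Dicer1, with -0.82 and -0.37 in miR-23b/27b/24 cells and 0.62 and 0.21 in vector cells. Its difference was -1.01 ± 0.22 (adjusted p = 0.0562), while that of Tarbp2 was 0.44.

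Among enzymes that tail or degrade precursors, 1 of 8 tested genes was lower. Tut7, a terminal uridylyltransferase, had 0.42 and 0.39 in miR-23b/27b/24 cells and 1.31 and 1.22 in vector cells, a difference of -0.86 ± 0.12 (adjusted p = 0.0221). Its second probe differed by -0.82 (adjusted p = 0.0280) and the third by 0.10 (adjusted p = 0.689). Lin28a and Lin28b, which block let-7 processing, were not tested.

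In the effector group of 19 tested genes, Tnrc6b was higher and Ajuba and Limd1 were lower. Ajuba and Limd1 are related LIM-domain proteins that bind Argonaute complexes. Ajuba had -0.97 and -0.98 in miR-23b/27b/24 cells and -0.34 and -0.17 in vector cells (-0.72 ± 0.13, adjusted p = 0.0365). Limd1 had -0.74 and -0.81 in miR-23b/27b/24 cells and -0.17 and -0.05 in vector cells (-0.67 ± 0.13, adjusted p = 0.0410), and its second probe differed by -0.44 (adjusted p = 0.134). The third protein of this family on the list, Wtip, differed by -0.08 and was not called.

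In deadenylation 1 of 19 tested genes was higher and 2 were lower. Cnot9, a subunit of the CCR4-NOT complex that GW182 proteins contact, had 0.38 and 0.26 in miR-23b/27b/24 cells and -0.35 and -0.50 in vector cells (0.74 ± 0.13, adjusted p = 0.0363). Btg1, an antiproliferative protein that binds the deadenylases, had -0.14 and 0.36 in miR-23b/27b/24 cells and 1.38 and 1.60 in vector cells (-1.38 ± 0.21, adjusted p = 0.0248). Cnot7, a catalytic subunit, had 0.01 and 0.04 in miR-23b/27b/24 cells and 0.59 and 0.63 in vector cells (-0.59 ± 0.12, adjusted p = 0.0477), but its second probe differed by -0.04 (adjusted p = 0.879). Over 16 alternatives the calls of Cnot7, Limd1, Ajuba and Cnot9 were the least stable, holding in 4, 8, 9 and 10, against 13 for Srrt, Smad1, Tut7, Btg1 and Tnrc6b at their brightest probes.

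None of the 12 tested genes of decapping and decay was called. Dcp1a, a decapping cofactor, had the smallest p, with 0.18 and 0.40 in miR-23b/27b/24 cells and -0.13 and -0.02 in vector cells (0.37 ± 0.14, adjusted p = 0.171). Its second probe differed by 0.06.

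**Figure D4:**
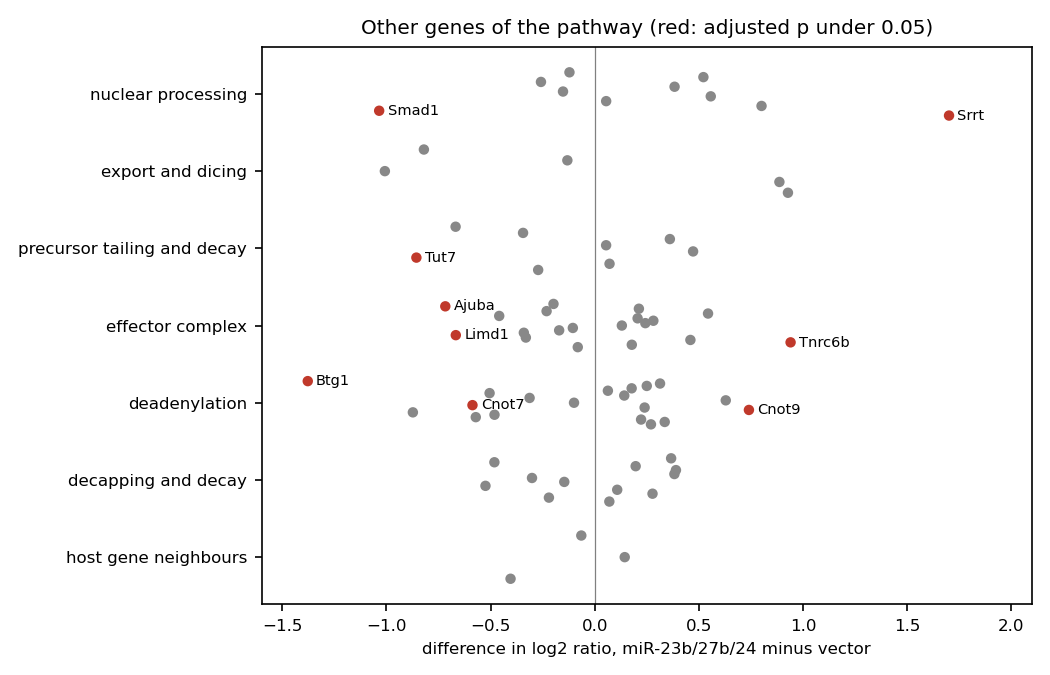
Difference in log2 ratio, miR-23b/27b/24 minus vector (horizontal axis), at the brightest probe of each of the 76 tested pathway genes, in rows by role; red points with names have an adjusted p under 0.05, and the vertical offset within a row only separates points. The 9 named genes are spread over 4 of the 7 roles, 3 to the right of 0 and 6 to the left.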

How the data were processed

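Total RNA was measured on 4 two-colour Agilent arrays. Per the labels' protocols, cell RNA carried Cy5 and the common reference Cy3, with no dye swap. Mean signals and local backgrounds of the spots were deposited as intensity, beside log10 ratios (Cy5 over Cy3), by Agilent Feature Extraction 9.5.3.1, per the submitters' processing notes and the file headers. The authors' deposited table holds log2 values: between 87.6% and 88.1% matched those ratios to 0.001 once these were put in log2 and each probe's median was taken off. What program was used is not given in the sources.

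Levels were computed in R 4.3.3 with limma 3.58.1: normexp with an offset of 50, after between 1782 and 1976 outlying local backgrounds per array were replaced by the array's median, then loess, with control spots at weight 0 and outlier spots left out. Probes whose Cy5 was well above background on both arrays of a group were fitted with lmFit and eBayes, with 2 residual degrees of freedom and 3.06 from the prior, and Benjamini-Hochberg adjustment; a gene in the pathway list was read at its brightest probe. Of the probes, 22951 were named by accession, 6659 by symbol and 3109 by synonym through RefSeq's gene table (GRCm38.p6), and 8455 kept the files' name. Probe positions are those of the files (mm7), and sequences and gene spans come from RefSeq (GRCm38.p6) or the files' probe column; all 3 hairpins were matched. The test was run on simulated data whose noise was drawn from limma's own fitted model. That run cannot show how well the model fits these arrays. The number of arrays limits the precision.

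The genes, lists and settings were chosen with earlier results of these data known. Named were all 10 genes at every probe, per role of the list up to 3 called genes per direction or else the smallest p, and the 4 genes most like Aopep, of which 1 is not reported here; Wtip, Pabpc1 and the probes near Aopep were named after their values were seen. Alternatives covered background, scaling, filter, probe choice, moderation, a replicate block and each array left out.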

Additional observations from a re-analysis of the deposited data

How the results depend on the processing

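Over all alternatives tried, 0 of the 2 Tnrc6a calls changed direction. With every local background as measured, 0 of the 27 probes and 0 of the pathway genes were called. Pathway calls were 5 with Feature Extraction's processed signals and loess, with its log ratio, and with the authors' deposited values, where 9.88%, 9.78% and 9.79% of all probes were called. With 1 probe a gene, 1 of 9 genes was called (the brightest Ago2 probe lies outside the rule) and the median difference was -0.10; with the mean of a gene's probes 1 was called. Leaving out each array in turn gave 0 to 4 called probes of the 27, 0 to 21 pathway genes and a median difference of 0.030 to 0.21. Over all probes the share called moved too, to 0.836% and 0.882% without miR-23b/27b/24 replicate 1 and 2, and to 22.8% and 14.5% without vector replicate 1 and 2. Same-numbered arrays of the groups deviated with a correlation of 0.0655, which does not decide whether they were handled as pairs. With a replicate block 2 of the 27 probes and 10 pathway genes were called, beside 10.9% of all probes. All arrays shared 1 slide and 1 scan, so a slide block could not be fitted.

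Only differences that had not passed the test changed sign. With every local background as measured these were Ago1 A_52_P97489 (0.44), Ago3 A_52_P126513 (-0.012), Dgcr8 A_52_P22446 (-0.064) and A_52_P105381 (-0.042), Dicer1 A_51_P483059 (0.11), Xpo5 A_52_P638867 (-0.14), Cnot7 A_52_P120958 (0.022), and Tnrc6b A_51_P344770 (-0.59) and A_52_P627099 (-0.081). Aopep A_51_P266138 was at 0.099, 0.074, 0.074 and 0.052 with processed signals and loess, the log ratio, the authors' values and no background correction, and Cnot7 A_52_P120958 at 0.045 with median centring. With Cy5 alone they were Ago3 A_52_P24793 (0.036), Drosha A_51_P127186 (0.012), Xpo5 A_52_P209328 (0.13), Tnrc6b A_52_P301047 (-0.19) and Tut7 A_51_P225761 (-0.066). Leaving out an array in turn gave -0.40 to 0.014 for Ago1 A_52_P76402, -0.44 to 0.0059 for Ago2 A_51_P180001, -0.085 to 0.24 for Ago2 A_52_P101221, -0.22 to 0.14 for Aopep A_51_P266138, -0.049 to 0.31 for Dgcr8 A_52_P22446, -0.66 to 0.27 for Dicer1 A_51_P483059, -0.28 to 0.0068 for Xpo5 A_52_P201232, -0.29 to 0.047 for Xpo5 A_52_P209328, -0.13 to 0.046 for Cnot7 A_52_P120958, -0.50 to 0.10 for Ago4 A_52_P525027, -0.041 to 0.069 for Tnrc6b A_51_P344770 and -0.0073 to 0.21 for Tut7 A_51_P225761. The cause of these changes was not tested.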

Other observations

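Pabpc1, the cytoplasmic poly(A)-binding protein, had probes that lay in opposite directions. At its brightest probe (A_51_P119106, chr15:36705469-36705528 in mm7) the log2 ratios were 0.86 and 0.45 in miR-23b/27b/24 cells and 1.63 and 1.42 in vector cells, a difference of -0.87 ± 0.19 (limma adjusted p = 0.0528). At the other probe (A_52_P204023, chr15:36713235-36713294) they were -1.12 and -1.79 in miR-23b/27b/24 cells and -2.72 and -2.75 in vector cells, a difference of 1.28 ± 0.24 (limma adjusted p = 0.0401). At the brightest probe the Cy5 signal was 144209 and 131082 units in miR-23b/27b/24 cells and 244305 and 186093 units in vector cells. The Cy3 signal of the reference RNA differed there too, with 84846 and 92849 units on the miR-23b/27b/24 arrays and 59055 and 73745 units on the vector arrays. Pabpc1 was chosen after its values were seen, and the cause of the disagreement between its probes was not tested.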
